A study of Mus musculus with 16 samples.

Results

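The genes described here encode the subunits of the ionotropic glutamate receptors and of the GABA-A receptors, measured as messenger RNA in mouse hippocampus. Members were taken by gene name alone: every Gria, Grik and Grid gene, the NMDA genes Grin1, Grin2a to Grin2d, Grin3a and Grin3b, and the GABA-A genes named Gabra, Gabrb and Gabrg plus a digit, Gabrd, Gabre and Gabrq. The rule found 33 names in 32 entries (36 loci) among 22572 named entries, 18 for glutamate and 14 for GABA-A receptors. Grik2 shares an entry with C130030K03Rik, here the Grik2 entry. Of the 32 entries, 29 averaged 1 FPKM or more and were tested, as were 12648 entries of the table in all. Gabrq, Gabre and Grin3b, at 0.414, 0.346 and 0.0970 FPKM, were not. FPKM divide fragments by transcript length and library size, so levels can be compared between genes per length.

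The tissue came from male C57BL/6 mice of 4 groups with 4 libraries each. BgnFru mice lacked Bgn (Bgn0/-) and drank 15% (w/v) fructose for 6 weeks from 3 months of age, WTFru mice were wild type on the same drink, and BgnCtrl mice (Bgn0/-) and WTCtrl mice (wild type) drank regular water. Bgn encodes biglycan, a small proteoglycan of the extracellular matrix, and the design asks what its loss and fructose each do to hippocampal transcripts. The genotype label names no cell type, and the labels do not state whether each replicate is its own animal, so a p-value reflects only how far these libraries scatter, which may be technical. In whole tissue, fewer cells of a type and less RNA per cell cannot be told apart.

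AMPA and kainate receptors carry fast excitatory current, and NMDA receptors pass calcium when glutamate arrives at an already depolarised membrane, which makes them central to hippocampal plasticity. Each is a tetramer whose subunit mix sets its conductance, kinetics and calcium entry. GABA-A receptors are pentameric chloride channels, most often built from alpha and beta subunits with a gamma or delta subunit.

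Library facts bear on every value. All 5 CA1, 6 CA3 and 6 dentate granule cell markers were tested and none was at 0. Markers of striatum, cerebellum, neocortex and thalamus were also detected in every library, so this does not measure the purity of the dissection. Bgn itself was 6.5 ± 1.14 FPKM in BgnKO and 16 ± 6.42 in WT libraries (SD, n = 8 each, 2-sided exact permutation p = 0.00109; p = 0.114 within the fructose groups and 0.0286 within the water groups, the smallest that 4 against 4 allow), and WTFru replicate 1, at 5.42 FPKM, lay inside the BgnKO range. The depth is unknown, since FPKM hold no counts. In replicate 1 of each group the strand opposite to a gene took a median of 3.13 to 4.29% of its FPKM over 418 genes with loci on both strands, against 17.2 to 22.2% in the other 12 libraries. Because this split crosses all 4 groups, tests were also run with a term for replicate 1 and in replicates 2 to 4 alone. BgnFru replicate 4 also stood apart: it was the lowest of 16 libraries for 19 of the 29 tested subunits, and for 23.5% of all tested genes.

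Promoters of 3 subunits are shown because these genes carry the differences described below: Gabrg1, which was higher in the knockout, and Gria2 and Grin1, which were lower with a term for replicate 1. They come from RefSeq (GRCm38.p6), run 5′ to 3′ on the gene's strand from 250 bases before to 50 after the annotated start, and were found for 21 of the 33 names. Gabrg1 lies at chr5:70842568-70842867, Gria2 at chr3:80802786-80803085 and Grin1 at chr2:25319138-25319437, all on the minus strand. Capitals mark a match to NRF-1 in Gria2 and to overlapping Egr and Sp1 motifs in Grin1.
Gabrg1: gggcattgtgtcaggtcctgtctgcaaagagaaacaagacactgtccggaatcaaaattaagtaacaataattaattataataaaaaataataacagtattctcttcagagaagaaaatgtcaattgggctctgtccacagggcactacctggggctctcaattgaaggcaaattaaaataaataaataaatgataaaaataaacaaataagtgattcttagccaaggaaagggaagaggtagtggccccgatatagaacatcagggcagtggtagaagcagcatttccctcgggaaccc
Gria2: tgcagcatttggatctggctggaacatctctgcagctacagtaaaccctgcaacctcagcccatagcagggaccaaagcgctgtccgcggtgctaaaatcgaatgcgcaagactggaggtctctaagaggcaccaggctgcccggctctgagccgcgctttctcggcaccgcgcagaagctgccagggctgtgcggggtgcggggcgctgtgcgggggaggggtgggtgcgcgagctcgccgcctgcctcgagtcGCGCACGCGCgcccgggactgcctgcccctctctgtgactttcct
Grin1: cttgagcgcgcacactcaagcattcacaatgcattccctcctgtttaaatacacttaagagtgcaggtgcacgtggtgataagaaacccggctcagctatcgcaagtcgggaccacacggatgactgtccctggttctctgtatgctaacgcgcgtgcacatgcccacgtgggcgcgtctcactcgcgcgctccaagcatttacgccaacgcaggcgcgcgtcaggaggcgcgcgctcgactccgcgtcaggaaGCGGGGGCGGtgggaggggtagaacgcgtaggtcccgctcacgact
The Gabrg1 window is poor in G and C, at 38.3%, against 65.7% for Gria2, 60.7% for Grin1 and a median of 59.7% over the 25 member windows and 52.7% over 32851 promoters. Motifs were searched on both strands, and none occurs in the Gabrg1 window. The NRF-1 motif, whose match stands in capitals in Gria2, occurs in 2 of the 21 genes and in 4.60% of all promoters. The Egr motif, searched as GCGNGGGCG, occurs in 4 genes and 5.55% of promoters. The Sp1 motif, searched as GGGCGG, occurs in 11 genes and 35.7% of promoters. The CRE, searched as TGACGTCA, occurs in 0 genes and 1.79% of promoters. The TATA box, searched as TATAAA, occurs in 3 genes and 13.6% of promoters. The Egr and Sp1 matches of Grin1 overlap. A match describes letters only and is not a binding site.

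Levels spanned from 209.7 FPKM (Gria1, mean of 16 libraries) to 0.0970 FPKM (Grin3b). Among AMPA genes Gria1 supplied 55.5 ± 3.08% of the summed FPKM (SD over 16 libraries), Gria2, the subunit whose edited form blocks calcium entry, 28.8 ± 2.61%, Gria3 10.8 ± 0.568% and Gria4 4.82 ± 0.644%. Grin1, the obligatory NMDA subunit, supplied 66.5 ± 2.37% of its class, followed by Grin2b at 15.1 ± 2.02%. Grin2a, whose product shortens NMDA currents relative to Grin2b, had 0.373 ± 0.0373 times the Grin2b level (SD, n = 16). That Grin2a level includes a locus on the opposite strand, at a mean of 3.37 FPKM beside 8.79 on the annotated strand. Grin2b, at 32.9 FPKM, had an annotated-strand locus only, so the annotated strand alone would give a lower ratio. Grik5, which encodes a high-affinity kainate subunit that needs a partner to form a channel, led the kainate genes at 59.1 ± 2.96%. Among GABA-A alpha genes Gabra5 supplied 29.2 ± 2.66% and Gabra2 20.5 ± 1.32%. The plot of levels by group shows Gria1, Grin1 and Grik5 leading the AMPA, NMDA and kainate genes in all 4 groups.

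**Figure D1:**
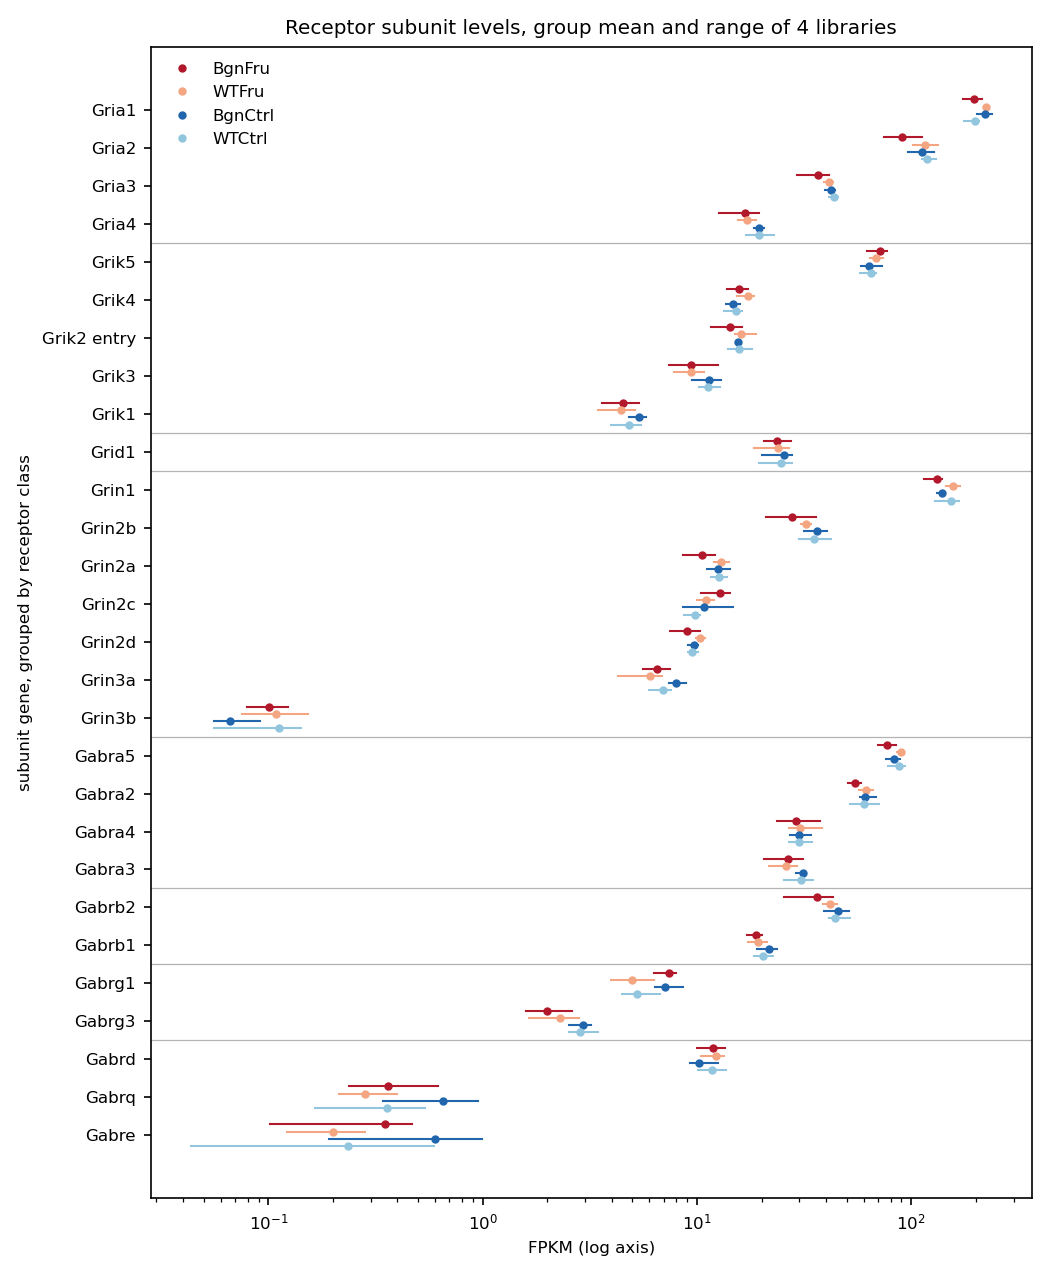
FPKM (log axis) of 28 subunit entries by receptor class: dots are group means and lines the range of 4 libraries, in the order BgnFru, WTFru, BgnCtrl and WTCtrl from top to bottom. Gria1 leads at a mean of 209.7 FPKM, Gabrg1 lies higher in both knockout groups, and Gabrq, Gabre and Grin3b lie below 1 FPKM.

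With both drinks averaged, Gabrg1 was the only subunit called by limma at an adjusted p under 0.05: 1 of 29, 3.45% of the members, beside 4.99% of all tested genes (2.12% called higher). It encodes gamma1, a less common gamma subunit that in rodent brain is also reported in astrocytes and Bergmann glia. Gabrg1 rose in the knockout: it averaged 7.25 ± 0.854 FPKM in BgnKO and 5.12 ± 0.968 in WT (SD, n = 8 each). The log2 fold change on the log2(FPKM + 1) scale, which understates changes of weak genes, was 0.44 (SE 0.09, limma adjusted p = 0.0141).

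By library, in the order of replicates 1 to 4, Gabrg1 was at 8.0, 6.30, 7.56 and 7.69 FPKM in BgnFru and 6.29, 5.28, 4.46 and 3.97 in WTFru. With regular water the values were 8.64, 6.57, 6.34 and 6.89 in BgnCtrl and 6.72, 4.49, 4.47 and 5.32 in WTCtrl. The fructose groups did not overlap, and on water only WTCtrl replicate 1 reached into the knockout range. Replicate 1 was the highest library of every group. On fructose alone the log2 fold was 0.49 (SE 0.13, limma adjusted p = 0.0514), just short of the threshold, and on water 0.38 (SE 0.13, adjusted p = 0.525). With a term for replicate 1 both passed, at adjusted p = 0.00262 on fructose and 0.0417 on water, where 0.996% of all genes were called. In replicates 2 to 4 alone the adjusted p was 0.0101 on fructose and 0.131 on water (0.625% of all genes called). The difference between the drinks was 0.11 (SE 0.19, limma adjusted p = 0.999).

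Gabrg3, another gamma subunit, averaged 1.99 ± 0.461 FPKM in BgnFru and 2.29 ± 0.481 in WTFru, and 2.94 ± 0.30 in BgnCtrl and 2.85 ± 0.419 in WTCtrl (SD, n = 4 each). It did not pass the test.

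Markers of some other cell types, astrocyte markers among them, were like Gabrg1 mostly higher in the knockout. Replicate 1 was the highest Gabrg1 library of every group, but in no group the highest library for the astrocyte markers. Among replicates 2 to 4, replicate 4 was highest for Gabrg1 and for these markers in BgnFru and BgnCtrl. Among the same replicates in WT, Gabrg1 was highest in WTCtrl replicate 4 and WTFru replicate 2, where these markers were lowest. All 12 astrocyte markers were higher in BgnFru than in WTFru, with a median log2 fold of 0.38 and 4 called (Gfap, Aqp4, Gja1 and Fgfr3). Their summed FPKM ranged from 1663 to 2246 in BgnFru and from 1508 to 1637 in WTFru, and from 1486 to 2183 in BgnCtrl and 1463 to 1681 in WTCtrl, and none of the 12 was at 0. On water 10 of 12 were higher in BgnCtrl (median 0.15, 0 called), and with both drinks averaged 11 of 12 were higher in the knockout (median 0.27), with 5 called (the same 4 and Sox9). The mean log2 deviation of the list ranged from -0.12 to 0.35 in BgnCtrl, highest in replicate 4, and from -0.21 to -0.04 in WTCtrl. Meninges markers were higher in the knockout for 10 of 10 genes on fructose, on water and averaged, with medians of 0.49, 0.50 and 0.45 and 0 called. Their summed FPKM ranged from 71.6 to 346.6 in BgnFru and 26.2 to 156.5 in WTFru, and from 159.6 to 218.4 in BgnCtrl and 96.8 to 188.5 in WTCtrl. Endothelium markers were higher for 6 of 6 on fructose and averaged and for 5 of 6 on water (medians 0.27, 0.21 and 0.14, 0 called). Microglia markers were higher for 10 of 10 on fructose and averaged and for 9 of 10 on water (medians 0.37, 0.27 and 0.13, 0 called). The part of these cell types in the Gabrg1 difference was not tested.

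**Figure D2:**
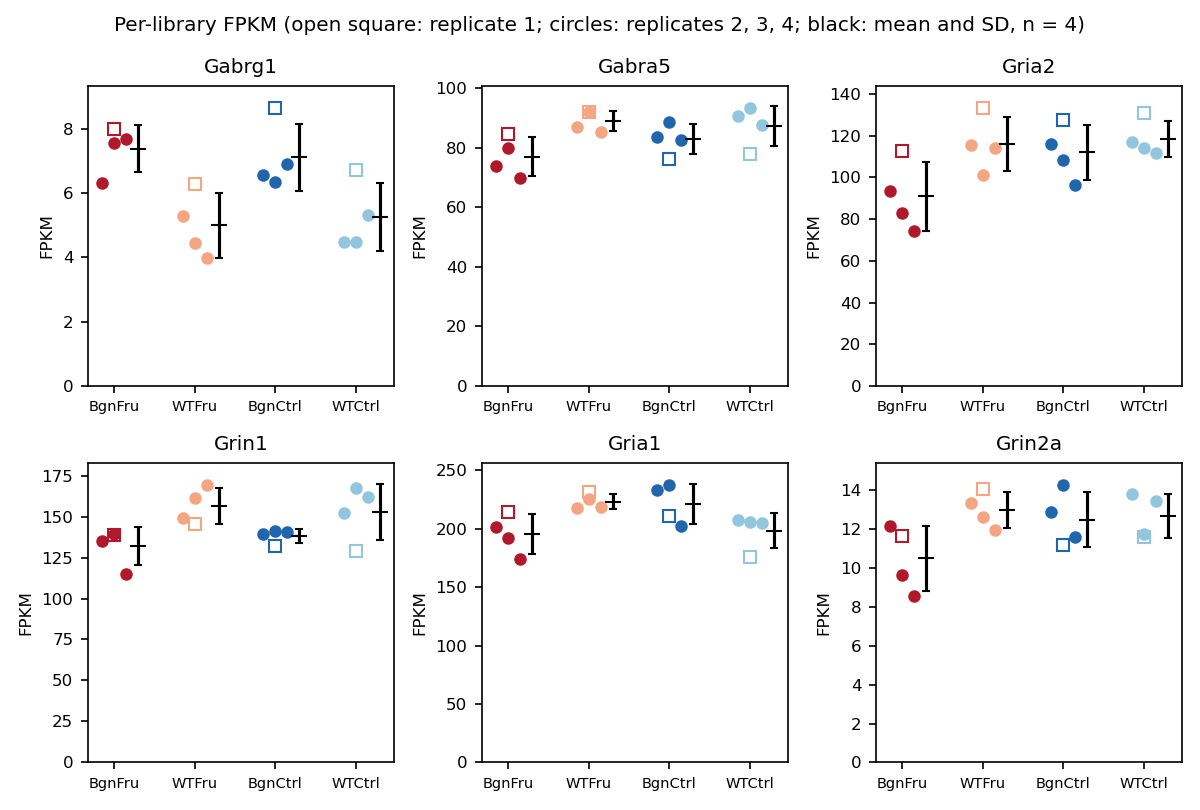
FPKM in each library for 6 subunits, with groups in the order BgnFru, WTFru, BgnCtrl and WTCtrl; open squares are replicate 1, circles replicates 2 to 4, and black marks the mean and SD (n = 4). BgnFru Gabrg1 values, 6.30 to 8.0, lie above all WTFru values, and BgnFru replicate 4 is the lowest point for Gabra5, Gria2, Grin1, Gria1 and Grin2a.

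Between the fructose groups, 22 of the 29 subunits had a negative log2 fold, 12 of 17 glutamate and 10 of 12 GABA-A entries, with a median of -0.13 beside -0.01 over all tested genes, of which 52.5% were negative. Limma called 0 of the 29 without a term for replicate 1, beside 3.76% of all genes, and 8 had an unadjusted p under 0.05, 27.6% beside 21.3% of all genes. With a term for replicate 1 it called 4 (17.3% of all genes): Gabrg1 rose, and Gria2 and Grin1 were among those that fell. In replicates 2 to 4 alone it called 5, with Gabra5 among those that fell (10.9% of all genes). Without BgnFru replicate 4 the signs were nearly even, with 15 of 29 negative beside 48.5% of all genes, a median of -0.06, and 13.8% of subunits at an unadjusted p under 0.05 beside 14.1% of all genes.

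Gria2 was at 112.5, 93.5, 83.1 and 74.4 FPKM in BgnFru and 133.2, 115.6, 101.4 and 114.2 in WTFru. The water groups had 127.5, 116.1, 108.1 and 96.4 in BgnCtrl and 130.9, 117.2, 114.1 and 111.6 in WTCtrl. The fructose groups overlapped only through BgnFru replicate 1 and WTFru replicate 3. The fructose log2 fold was -0.36 (SE 0.12, limma adjusted p = 0.103; with the replicate 1 term SE 0.08, adjusted p = 0.00764), against -0.08 (SE 0.12, adjusted p = 1) on water.

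Gria1, the other main AMPA subunit, was at 214.6, 201.9, 192.2 and 174.5 FPKM in BgnFru and 231.6, 218.2, 225.3 and 218.5 in WTFru. In the groups on water, values were 211.0, 233.6, 237.8 and 202.1 in BgnCtrl and 175.6, 207.7, 205.5 and 205.4 in WTCtrl. The fructose groups did not overlap, the water groups did, and WTCtrl replicate 1 was low. The log2 fold was -0.19 (SE 0.08, limma adjusted p = 0.178) on fructose and 0.15 (SE 0.08, adjusted p = 1) on water. Of all subunits it had the smallest interaction p, 0.00776 with a difference of -0.35 (SE 0.11), but the limma adjusted p was 0.999. The Gria1 to Gria2 ratio was 2.18 ± 0.200 in BgnFru and 1.94 ± 0.203 in WTFru, and 1.99 ± 0.237 in BgnCtrl and 1.69 ± 0.233 in WTCtrl (SD, n = 4 each). Gria3 averaged 36.7 ± 5.55 FPKM in BgnFru and 41.3 ± 1.81 in WTFru, and Gria4 16.7 ± 3.26 and 17.1 ± 1.37. With regular water Gria3 averaged 42.4 ± 2.03 in BgnCtrl and 43.4 ± 1.89 in WTCtrl, and Gria4 19.5 ± 1.07 and 19.5 ± 2.57. Summed AMPA FPKM were 340.1 ± 39.4 in BgnFru and 397.9 ± 18.2 in WTFru, against 395.0 ± 25.9 in BgnCtrl and 379.9 ± 4.33 in WTCtrl.

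Grin1 was at 138.8, 135.3, 139.5 and 114.8 FPKM in BgnFru and 145.7, 149.2, 161.2 and 169.4 in WTFru. On water it was at 132.0, 139.5, 141.4 and 140.5 in BgnCtrl and 128.7, 152.1, 167.7 and 161.7 in WTCtrl. The fructose groups were separate, and on water only WTCtrl replicate 1 lay below the knockout libraries. The log2 fold was -0.24 (SE 0.09, limma adjusted p = 0.125; 0.0412 with the replicate 1 term) on fructose and -0.13 (SE 0.09, adjusted p = 1) on water. Among the glutamate-binding partners, Grin2b averaged 27.9 ± 6.07 FPKM in BgnFru and 32.1 ± 1.62 in WTFru, and 36.4 ± 3.84 in BgnCtrl and 35.1 ± 5.0 in WTCtrl. Grin2c, which in forebrain is known from astrocytes as well as interneurons, averaged 12.9 ± 1.73 in BgnFru and 11.0 ± 0.964 in WTFru, and 10.8 ± 2.74 in BgnCtrl and 9.82 ± 0.774 in WTCtrl. Neither was called in any genotype comparison of the 3 fits.

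Grin2a was at 11.6, 12.1, 9.65 and 8.59 FPKM in BgnFru and 14.1, 13.4, 12.6 and 11.9 in WTFru, which gave -0.29 on the log2 scale (SE 0.10; limma adjusted p = 0.120). With regular water the values were 11.2, 12.9, 14.3 and 11.6 in BgnCtrl and 11.6, 13.8, 11.8 and 13.5 in WTCtrl. BgnFru replicate 2 alone reached the WTFru range. This value sums a locus on each strand: the opposite-strand locus held 2.31 to 5.96 FPKM in 12 libraries, and 0 to 0.314 FPKM in replicate 1 of each group. On the annotated strand alone the adjusted p for Grin2a was 0.418. Grin2d averaged 8.96 ± 1.41 FPKM in BgnFru and 10.3 ± 0.452 in WTFru, and 9.69 ± 0.508 in BgnCtrl and 9.45 ± 0.453 in WTCtrl. These values also sum a locus on each strand, with means of 5.13 FPKM on the opposite and 4.47 on the annotated strand. Grin3a, an NMDA subunit that lowers calcium flow, averaged 6.53 ± 1.05 in BgnFru and 6.03 ± 1.18 in WTFru. With regular water it was at 7.94 ± 0.643 in BgnCtrl and 6.92 ± 0.675 in WTCtrl.

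Gabra5, a mainly extrasynaptic hippocampal subunit, was at 84.7, 73.8, 80.0 and 69.9 FPKM in BgnFru and 92.2, 87.2, 91.9 and 85.4 in WTFru. In the groups on water, values were 76.4, 83.8, 88.7 and 82.7 in BgnCtrl and 77.9, 90.8, 93.4 and 87.6 in WTCtrl. The fructose groups did not overlap and the water groups did. The log2 fold was -0.21 (SE 0.08, limma adjusted p = 0.123; 0.0507 with the replicate 1 term, 0.0327 in replicates 2 to 4) on fructose and -0.07 (SE 0.08, adjusted p = 1) on water. Counting every subunit whose fructose groups did not overlap gave Gabrg1 above (4.61% of all tested genes lie so) and 4 below, Gabra5, Gria1 and Grin1 among them (6.43% of all genes). On water 0 subunits were separate, beside 1.75% of all genes above and 2.26% below.

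For Gria2, Gabra5 and Grin1 the size rested in part on 1 library. Without BgnFru replicate 4 the fructose log2 fold was -0.27 for Gria2 (limma adjusted p = 0.316), -0.16 for Gabra5 (0.343) and -0.18 for Grin1 (0.363). Some markers differed in the same direction: all 6 tested pyramidal neuron markers were lower in BgnFru, with a median log2 fold of -0.24. Of the 5 CA1 markers 3 were lower, with Wfs1 called. Summed pyramidal markers ranged from 1701 to 2321 FPKM in BgnFru and 2097 to 2453 in WTFru, with none at 0 and the lowest mean deviation, -0.46, in BgnFru replicate 4. Microglia and choroid plexus markers were all higher in BgnFru (10 of 10 each, medians 0.37 and 1.11, 0 called). Summed choroid plexus markers overlapped between the groups, at 2648 to 9221 FPKM in BgnFru and 232 to 4468 in WTFru. The highest sum was in BgnFru replicate 4 and the lowest in WTFru replicate 1. The part of this in the subunit differences was not tested.

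**Figure D3:**
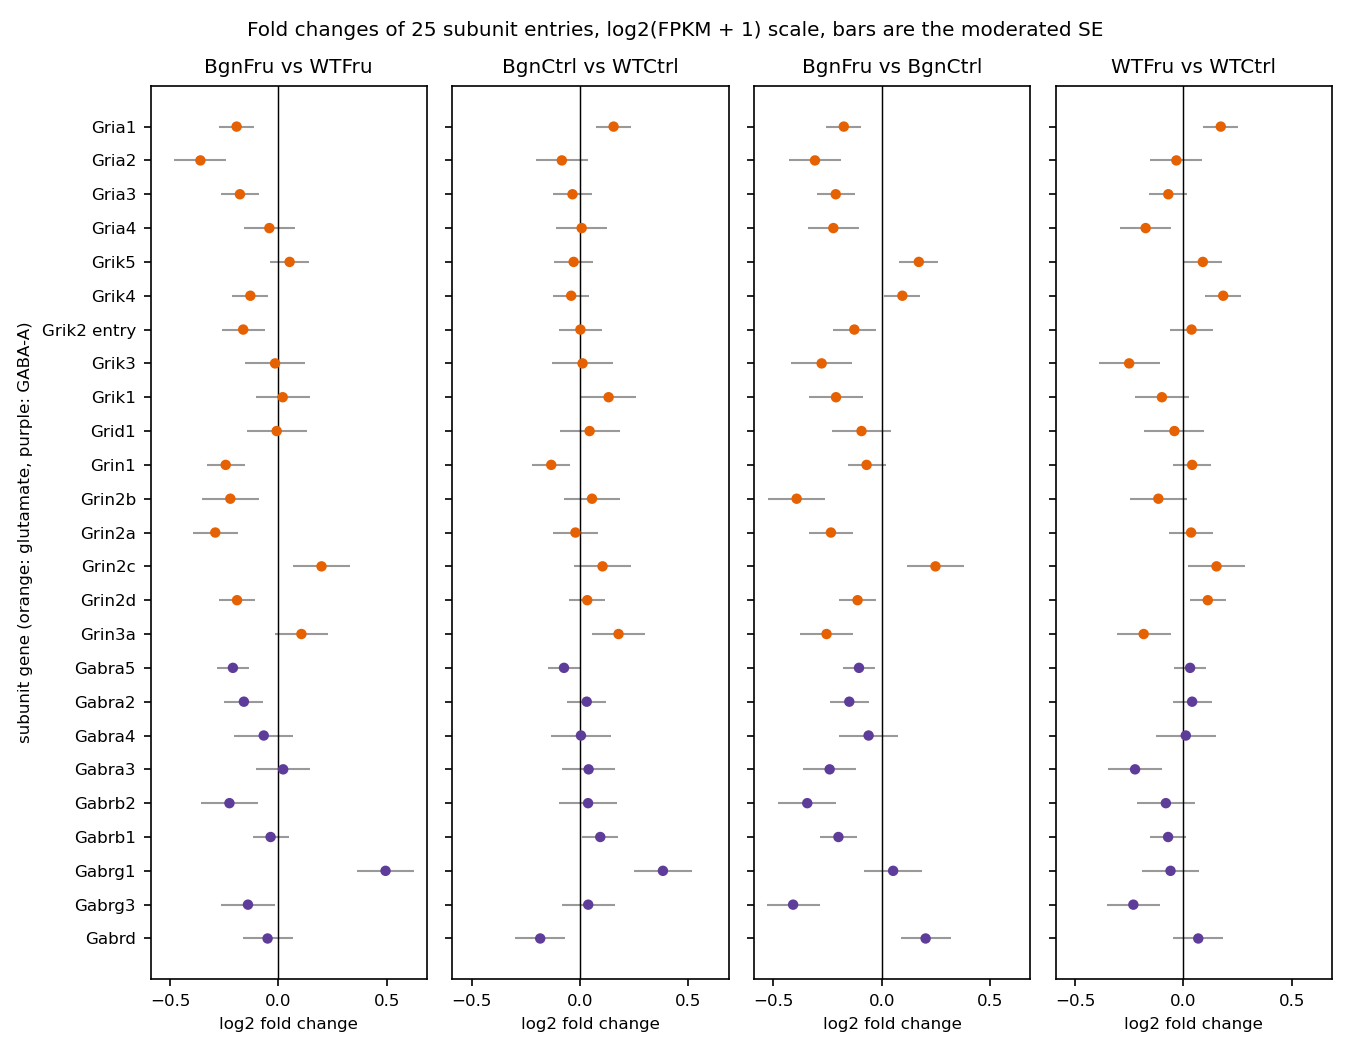
Log2 fold changes, on the log2(FPKM + 1) scale with moderated SE, of 25 tested subunits in the 4 pairwise comparisons; orange is glutamate and purple GABA-A, and a positive value is higher in the first-named group. Most points lie left of 0 in both BgnFru panels (19 and 20 of 25), and Gabrg1 lies to the right at 0.49 and 0.38 in the genotype panels.

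On water, limma called 0 of 29 subunits (0.387% of all genes), and 1, Gabrg1, had an unadjusted p under 0.05, 3.45% beside 5.33% of all genes. Of the 29, 10 were negative, 34.5% beside 50.5% of all genes, with a median log2 fold of 0.03. With the averaged contrast and a term for replicate 1, Gabrg1 rose and Gria2 (-0.22) and Grin1 (-0.19) fell, at limma adjusted p of 0.000317, 0.0125 and 0.0276 (18% of all genes were called).

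The Grik2 entry was at 16.2, 14.7, 14.7 and 11.6 FPKM in BgnFru and 18.9, 15.4, 15.0 and 15.1 in WTFru, and at 15.7, 15.6, 15.3 and 15.8 in BgnCtrl and 18.1, 15.8, 14.7 and 14.0 in WTCtrl. Grik4, a high-affinity subunit known from CA3, was at 17.3, 13.8, 16.4 and 15.5 in BgnFru and 18.1, 15.3, 18.5 and 17.4 in WTFru, and at 14.2, 13.6, 15.0 and 15.8 in BgnCtrl and 13.3, 16.2, 16 and 14.9 in WTCtrl. Both genes overlapped between genotypes on each drink. Grik1 was at 3.88, 5.36, 5.31 and 3.59 in BgnFru and 3.47, 5.14, 4.35 and 4.80 in WTFru, and at 5.04, 5.80, 5.76 and 4.82 in BgnCtrl and 4.70, 3.96, 5.50 and 5.11 in WTCtrl. Grik5 averaged 71.5 ± 6.52 FPKM in BgnFru and 68.8 ± 4.00 in WTFru, and 63.5 ± 7.11 in BgnCtrl and 64.7 ± 5.33 in WTCtrl. No kainate gene was called in any comparison. Grik3 was at 9.36 ± 2.38 in BgnFru, 9.34 ± 1.31 in WTFru, 11.4 ± 1.46 in BgnCtrl and 11.3 ± 1.1 in WTCtrl.

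Grid1, a delta receptor gene, averaged 23.7 ± 3.09 FPKM in BgnFru, 23.9 ± 3.70 in WTFru, 25.4 ± 3.60 in BgnCtrl and 24.6 ± 3.65 in WTCtrl. Gabrd, the delta subunit of tonic inhibition in dentate granule cells, was at 13.5, 12.4, 11.6 and 9.95 in BgnFru and 13.4, 10.5, 12.6 and 12.6 in WTFru. On water Gabrd was at 9.57, 9.28, 9.30 and 12.6 in BgnCtrl and 10.1, 12.3, 13.6 and 10.7 in WTCtrl, which gave -0.18 on the log2 scale (SE 0.12; limma adjusted p = 1). BgnCtrl replicates 1 to 3 lay under all of WTCtrl and replicate 4 inside its range. Gabra2 averaged 54.7 ± 3.37 in BgnFru and 61.2 ± 3.89 in WTFru, Gabra3 26.6 ± 4.78 and 26.0 ± 3.27, and Gabra4 28.9 ± 6.06 and 30.2 ± 5.47. With regular water Gabra2 averaged 60.9 ± 5.14 in BgnCtrl and 59.8 ± 8.14 in WTCtrl. Gabra3 was there at 31.2 ± 1.60 and 30.5 ± 3.87, and Gabra4 at 29.8 ± 3.03 and 29.8 ± 3.33. Gabrb1 averaged 18.8 ± 1.30 in BgnFru and 19.3 ± 1.65 in WTFru, and Gabrb2 36.1 ± 7.82 and 41.7 ± 2.58. With regular water Gabrb1 averaged 21.8 ± 1.97 in BgnCtrl and 20.3 ± 1.76 in WTCtrl, and Gabrb2 45.5 ± 5.15 and 44.3 ± 4.87.

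Mouse GABA-A genes lie in clusters, which the rule did not use. In the GENCODE annotation (GRCm38, the assembly of mm10) Gabrg1, Gabra2, Gabra4 and Gabrb1 lie together on chromosome 5 from 70751047 to 72149037. Their log2 folds with both drinks averaged were 0.44 (SE 0.09), -0.06 (SE 0.06), -0.03 (SE 0.10) and 0.03 (SE 0.06), and of these only Gabrg1 was called (limma adjusted p of the other 3 from 0.609 to 0.892). Gabre, Gabra3 and Gabrq lie together on the X chromosome, like the deleted Bgn (73483602 to 73495933), and end 1209, 827 and 641 kb before it.

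Of these X-linked genes Gabra3 was tested, at 0.03 on the log2 scale with drinks averaged (SE 0.09; limma adjusted p = 0.886). Gabre, the epsilon subunit, was at 0.395, 0.469, 0.101 and 0.433 FPKM in BgnFru and 0.122, 0.195, 0.202 and 0.281 in WTFru, and at 0.556, 0.996, 0.645 and 0.192 in BgnCtrl and 0.137, 0.171, 0.0434 and 0.591 in WTCtrl. These Gabre values sum a locus on each strand, with means of 0.216 FPKM on the annotated and 0.130 on the opposite strand. Gabrq, the theta subunit, was at 0.253, 0.618, 0.345 and 0.238 in BgnFru and 0.214, 0.282, 0.229 and 0.400 in WTFru, and at 0.602, 0.953, 0.719 and 0.343 in BgnCtrl and 0.479, 0.166, 0.247 and 0.540 in WTCtrl. Both were higher on average in the knockout on each drink, with overlapping libraries, and with values this low they were not tested. Grin3b, the NMDA subunit known from motor neurons, was at 0.0795, 0.102, 0.0991 and 0.124 in BgnFru and 0.117, 0.0862, 0.153 and 0.0754 in WTFru, and at 0.0558, 0.0624, 0.0917 and 0.0560 in BgnCtrl and 0.129, 0.0557, 0.124 and 0.141 in WTCtrl.

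Fructose was compared with water within each genotype, and limma called 0 subunits in either. In WT, 1 of 12648 genes was called (0.00791%), 17 of 29 subunits were negative, 58.6% beside 45.7% of all genes (median log2 fold -0.04), and 2 had an unadjusted p under 0.05, 6.90% beside 2.08% of all genes: Grik4 at 0.18 (SE 0.08) and Gria1 at 0.17 (SE 0.08), each with a limma adjusted p of 1. Gria1 was separate between WTFru and WTCtrl (1.09% of all genes lie higher so), and 0 subunits lay lower (0.783%). In the knockout, 0% of all genes passed and 24 of 29 subunits were negative, 82.8% beside 48.2% of all genes, with a median of -0.18 beside 0.01. Unadjusted p under 0.05 was reached by 10 subunits, all negative, 34.5% beside 12.9% of all genes.

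The smallest limma adjusted p in BgnFru against BgnCtrl was 0.318, shared by Gabrg3 (-0.41, SE 0.12) and Grin2b (-0.39, SE 0.13), followed by Gabrb2 at -0.34 (SE 0.13, adjusted p = 0.326). Without BgnFru replicate 4, 23 of 29 were negative, 79.3% beside 46.0% of all genes, with a median of -0.11. In that fit 3 were at an unadjusted p under 0.05, 10.3% beside 6.51% of all genes. With all 16 libraries, Gabrg1, at 0.05 (SE 0.13, interval of 2 SE from -0.21 to 0.32), Grik5 at 0.17 (SE 0.09) and Grin2c at 0.25 (SE 0.13) were among the 5 positive ones. Averaged over genotypes, 24 subunits were negative beside 45.8% of all genes, with a median of -0.11, and 13 reached an unadjusted p under 0.05, 44.8% beside 10.8% of all genes, with Gabrg3 lowest at -0.32 (SE 0.09, limma adjusted p = 0.405; 0.00791% of all genes were called). Without BgnFru replicate 4, 20 were negative (median -0.06) and 6 reached it, 20.7% beside 7.82% of all genes, and without WTFru replicate 1 as well, 3 did, 10.3% beside 7.55%. For the interaction limma called 0 of 29, beside 0.00791% of all genes, and 1 had an unadjusted p under 0.05, 3.45% beside 2.91% of all genes. Of these differences 24 were negative beside 52.3% of all genes, with a median of -0.11, and without BgnFru replicate 4 the count was 19, beside 48.2%, with a median of -0.04. The comparisons within the knockout and between the fructose groups share the BgnFru libraries.

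Single subunits differed between replicate 1 and the other libraries, as the plot of replicate 1 against the others shows. Gabra4 was 1.31, Gabrg1 1.28 and Gria2 1.21 times as high in replicate 1 as in the other libraries. Grid1 was at 0.757 times their level, 18.5 to 20.5 FPKM in replicate 1 and 21.8 to 27.7 in the others. For Grid1 this step was larger than any difference between group means. Summed CA3 markers also differed, at 347.2 to 457.2 FPKM in replicate 1 and 497.9 to 778.6 in the others. The mean log2 deviation of this list, in which each gene counts alike, overlapped. It ran from -0.20 to 0.13 in replicate 1 and from -0.13 to 0.18 in the others. The labels name no batch, and the cause was not tested.

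**Figure D4:**
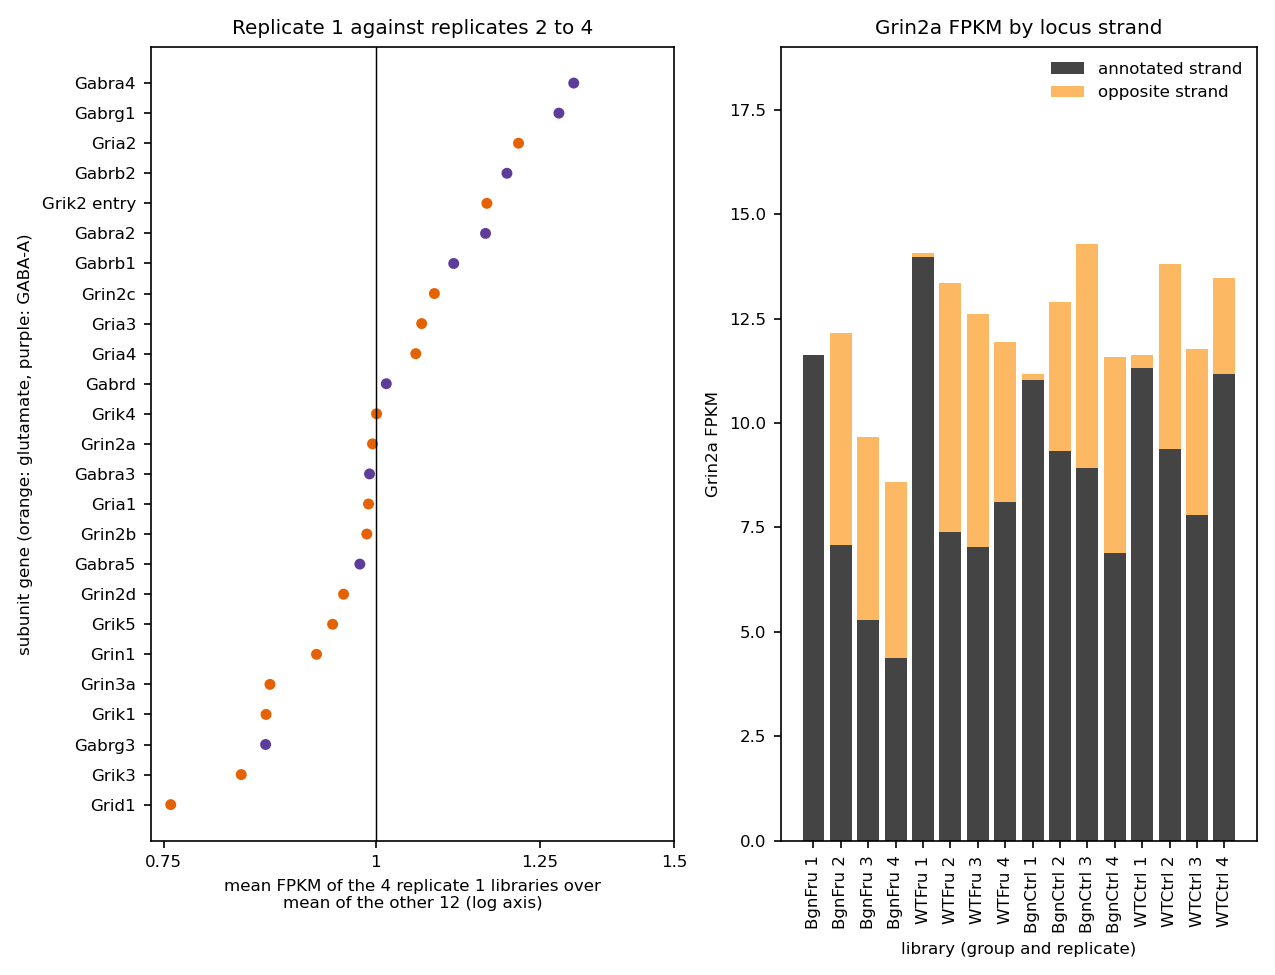
Left, mean FPKM of the 4 replicate 1 libraries over that of the other 12 for each of 25 tested subunits (log axis; orange glutamate, purple GABA-A), with Gabra4 at 1.31 and Grid1 at 0.757. Right, Grin2a FPKM per library split by locus strand: replicate 1 libraries hold 0 to 0.314 FPKM on the opposite strand, and the others 2.31 to 5.96.

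Genes that work with these receptors (auxiliary subunits, scaffolds, transmitter enzymes and transporters, chloride transporters) were taken as a list of 56, of which 53 were tested. Between the fructose groups 37 of 53 were negative, with a median log2 fold of -0.08, and limma called 2, Shisa7 among them (2.13% of all genes were called lower). Shisa7, a GABA-A auxiliary protein, fell to 38.4 ± 4.09 FPKM in BgnFru, against 52.7 ± 3.07 in WTFru (SD, n = 4 each; log2 fold -0.45, SE 0.10, limma adjusted p = 0.0222, lower in 4 of 4). Without BgnFru replicate 4 its adjusted p was 0.0764.

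Dlgap1, a scaffold of the excitatory postsynaptic density, fell with both drinks averaged (-0.15, SE 0.04, limma adjusted p = 0.0484; 2.87% of all genes were called lower). The call was lost in 13 of 16 fits that leave out 1 library, with adjusted p up to 0.104. Dlgap1 averaged 116.0 ± 3.09 FPKM in BgnFru and 132.6 ± 8.81 in WTFru, and 126.5 ± 2.50 in BgnCtrl and 137.5 ± 7.10 in WTCtrl (SD, n = 4 each). With a term for replicate 1, 10 of the 53 were called on fructose and 8 in the average, all lower, beside 9.39% and 9.98% of all genes called lower. Neto1 and Neto2, kainate receptor auxiliary subunits, were among them in both. Summed over all subunits, glutamate receptor FPKM were 1.5 ± 0.0938 times GABA-A FPKM in BgnFru and 1.52 ± 0.0740 in WTFru, and 1.44 ± 0.101 in BgnCtrl and 1.43 ± 0.143 in WTCtrl. These ratios differed by less than the spread between libraries.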

How the data were processed

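Hippocampal polyadenylated RNA of 16 libraries was sequenced on an Illumina HiSeq, per the labels' protocols. Reads were processed with TopHat, Bowtie, Cufflinks and Cuffdiff on mm10, per the submitters' processing notes. The versions, strand setting, annotation and scaling are not given in the sources used here. The authors deposited FPKM per locus. Loci of 1 name were summed, and loci without a name (46.8 to 70.4% of a library's FPKM) were left out. The strand of a locus was read from its place in the locus order, where all 20 neighbours of each subunit locus of a gene with loci on both strands lay on that strand.

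Tests used limma 3.58.1 in R 4.3.3 (4 group means, eBayes with trend) on log2(FPKM + 1) for entries with a mean of at least 1 FPKM, with Benjamini-Hochberg adjustment over all 12648 of them and a threshold of 0.05. The script was tested on simulated data. Bgn was tested by exact permutation. The members, lists and tests were chosen with earlier results of these data known. Values per library are given for subunits called in any of the 3 fits, for the smallest p of each class in each genotype comparison and for entries under the filter, and partner genes called in the first fit are named. Some subunits and partner genes that the rules select are not reported here, though they are included in the counts, class sums and medians. For promoter motifs, windows of RefSeq GRCm38.p6 were searched.

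Alternatives were a replicate block, a term for replicate 1, replicates 2 to 4 alone, a pseudocount of 0.1, no filter or one of 5 FPKM, median-ratio and quantile scaling, the highest locus in place of the sum, each library left out, WTFru replicate 1 and BgnFru replicate 4 left out together, and, added after seeing the data, annotated strand loci alone. Over all 4 replicates, same-number libraries deviated together in the drink comparisons (correlations 0.118 to 0.699 in WT and 0.197 to 0.612 in the knockout). From replicates 2 to 4 alone these were 0.00321 to 0.135 and -0.04 to 0.314. Beyond the split of replicate 1, the numbers therefore do not clearly pair the samples there. The block called 0 subunits in either drink comparison, as without it.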

Additional observations from a re-analysis of the deposited data

Results flagged for a closer look

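Of 112 sets of 4 libraries (28 entries in 4 groups), 8 held a library far from the other 3, where chance flags about 1 in 20, and 6 of the 8 are replicate 1 libraries. In WTFru, replicate 1 was high for Gabra4 (38.4 FPKM, others 26.9 to 28.4) and the Grik2 entry (18.9, others 15.0 to 15.4), and low for Grin3a (4.28, others 6.44 to 6.85). In BgnCtrl, replicate 1 was low for Grid1 (20.03, others 26.4 to 27.7). In WTCtrl, replicate 1 was high for Gabrb2 (51.6, others 41.4 to 42.2) and low for Gria1 (175.6, others 205.4 to 207.7).

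The other 2 are replicate 4 libraries. Gabrd was 12.6 FPKM in BgnCtrl replicate 4 (others 9.28 to 9.57), and Grin1 was 114.8 in BgnFru replicate 4 (others 135.3 to 139.5).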

How the results depend on the processing

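The rise of Gabrg1 averaged over drinks passed limma's threshold under all 27 alternatives, and leaving out each library gave adjusted p of 0.00515 to 0.0333. With the replicate block, subunits called numbered 7 on fructose, 5 averaged and 0 on water, against 0, 1 and 0 without it, and all genes called 2483, 2508 and 125, against 475, 631 and 49. Between genotypes the numbers do not clearly pair the samples either. The smallest correlations over all 4 replicates were -0.04 on water and 0.0868 on fructose. From replicates 2 to 4 alone the correlations ran from -0.269 to -0.107 on water and from -0.256 to 0.205 on fructose. Between genotypes 2 of 8 libraries on water and 5 of 8 on fructose correlated best with their own number. In the drink comparisons 5 of 8 did so in WT and 6 of 8 in the knockout. With a term for replicate 1 the subunit counts were 4, 4 and 1 and the gene counts 2190, 2279 and 126. In replicates 2 to 4 alone they were 5, 4 and 0 and 1377, 1590 and 79, with 3 genes for fructose in WT, 2 for the interaction and 2 for fructose averaged. There Bgn on water differed by -10.54 FPKM (exact p = 0.1, the smallest that 3 against 3 allow). Median-ratio scaling called 1 subunit on fructose. A filter of 5 FPKM, which tests fewer genes, called 313, 414 and 26. Without WTFru replicate 1 and BgnFru replicate 4 together 137 genes were called on fructose. Leaving out each library gave 0 to 2 subunits on fructose and 1 to 3 averaged, and 147 to 940 genes on fructose, 392 to 1061 averaged and 30 to 57 on water. On fructose, genes called numbered 940 without BgnFru replicate 1, 243 and 166 without BgnFru replicates 3 and 4, and 178, 259 and 147 without WTFru replicates 2, 3 and 4. Averaged, they numbered 1061 without BgnFru replicate 1, 411 without BgnFru replicate 3 and 392 without WTFru replicate 4, and on water 30 to 32 without BgnCtrl replicates 2 or 3 or WTCtrl replicates 2 or 4. On fructose alone Gabrg1 passed without BgnFru replicate 2 or replicate 1 of WTFru, BgnCtrl or WTCtrl, and Gria2 without BgnFru replicate 1. Subunits called averaged numbered 3 without BgnFru replicate 1 and 2 without WTCtrl replicate 1. Signs turned only in small folds: on fructose Gabrd was 0.024 without BgnFru replicate 4 (-0.12 at the other end) and, without both doubted libraries, 0.064, and the Grik2 entry 0.000914; Gria1 averaged was 0.00166 without BgnCtrl replicate 4, 0.00756 without BgnFru replicate 4 (-0.048 at the other end) and 0.016 without both doubted libraries. The causes were not tested. Among leave-one-out fits Dlgap1 lost its call in 13 of 16 and Shisa7 in 5. Over alternatives, 991 values of named genes kept direction and side of the threshold, 29 gained a call, 23 lost one and 6 turned sign. Unknown depth leaves the counting error of weak subunits unmeasured, and a merged entry limits the Grik2 value.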
